A study of Homo sapiens with 9 samples.

Results

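Metallothioneins are small, cysteine-rich proteins that bind zinc, copper and cadmium and hold much of the exchangeable zinc of a cell. Their genes are among the best known targets of MTF1, a zinc finger transcription factor that is activated when free zinc rises and that binds short promoter motifs called metal response elements. SLC30A1 (ZnT1) is the zinc exporter of the plasma membrane, and its gene is a textbook MTF1 target as well. In liver, metallothionein genes are also known to respond to glucocorticoids, cytokines and several kinds of stress.

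The 9 genes described here are the metallothionein genes MT2A, MT1E, MT1F, MT1G, MT1H, MT1M and MT1X, the regulator gene MTF1 and the exporter gene SLC30A1. They were found by the gene symbol that the platform annotation gives each probe set, a group of array probes for one transcript, after the symbols had been brought up to date. The 9 genes had 20 probe sets with a single gene symbol, of 49293 probe sets on the array other than control features. A further probe set lists MT1M together with MT1JP and MT1P3 and was not counted for any gene. It lay between 4.10 and 4.59 log2 on the 9 arrays.

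Messenger RNA was measured on 9 one-colour Affymetrix arrays in 3 groups of 3. Cells named R-HepG2 in the protocols, an insulin-resistant form of the human hepatoma line HepG2, were kept overnight without serum and then given biomineralized insulin at 40 ug/ml, insulin at 40 ug/ml, or medium alone, each for 4 h. All 3 groups were then washed with a solution that contained EDTA, a metal chelator, before RNA was taken. The cell line tag reads HepG2 for the biomineralized insulin and insulin arrays and R-HepG2 for the medium arrays, so a difference in cell form could not be told apart from treatment in comparisons with medium. No group received the mineral without insulin. Whether the replicates are separate cultures is not said in the sources used here, and p-values therefore cover only array-to-array spread, which may be technical.

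The defining markers of the labelled cell type were mostly dim. Of 16 hepatocyte and hepatoma marker genes measured, 4 (APOA1, TTR, AHSG and TF) had a brightest probe set above the brightness filter of 4.74 log2, and the median over the 16 was 4.08 log2 with biomineralized insulin, 4.08 with insulin and 4.03 in medium. ALB, the albumin gene, was at 3.41, 3.49 and 3.28 log2 in the same order of groups, and AFP, the alpha-fetoprotein gene, at 2.93, 2.87 and 3.00. Above the filter were 4 of 7 lung epithelium, 5 of 6 fibroblast, 4 of 4 endothelium and 2 of 5 leukocyte markers. Over the 3 groups their medians were 5.01 to 5.15 log2 for lung, 5.93 to 6.02 for fibroblasts, 5.12 to 5.22 for endothelium and 2.93 to 3.07 for leukocytes. The mean over the 7 lung markers was higher with biomineralized insulin, at 4.91 to 4.98 log2 on its arrays, against 4.79 to 4.83 with insulin and 4.71 to 4.84 in medium, and its part in the results was not tested. The cells are therefore called by their label only. Array medians lay between 5.46 and 5.50 log2, and arrays of 1 group correlated at 0.9977 to 0.9984 across probe sets.

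The upstream sequences of 4 members are shown because metal response elements are the elements through which MTF1 acts, and because the genes shown differ in the results that follow. Each run is the 250 bases before the annotated transcription start, 5′ to 3′ on the gene's own strand, from RefSeq (GRCh38.p14). Capitals mark every match, on either strand, to the core letters TGCACNC or TGCGCNC, in which N is any base, with overlapping matches counted separately. The windows are chr16:56608334-56608583 on the plus strand (MT2A), chr16:56682220-56682469 on the plus strand (MT1X), chr16:56669564-56669813 on the plus strand (MT1H) and chr1:211579162-211579411 on the minus strand (SLC30A1).
MT2A: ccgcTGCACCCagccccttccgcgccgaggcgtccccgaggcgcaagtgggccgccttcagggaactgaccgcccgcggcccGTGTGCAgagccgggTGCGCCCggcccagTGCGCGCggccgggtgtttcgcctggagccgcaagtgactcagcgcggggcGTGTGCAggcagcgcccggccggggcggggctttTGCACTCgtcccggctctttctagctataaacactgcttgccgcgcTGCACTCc
MT1X: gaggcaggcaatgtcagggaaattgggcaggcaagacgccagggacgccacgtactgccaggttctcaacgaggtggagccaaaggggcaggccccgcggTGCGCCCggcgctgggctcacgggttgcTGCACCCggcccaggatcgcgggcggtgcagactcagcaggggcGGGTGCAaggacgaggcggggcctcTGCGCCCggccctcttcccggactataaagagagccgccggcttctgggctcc
MT1H: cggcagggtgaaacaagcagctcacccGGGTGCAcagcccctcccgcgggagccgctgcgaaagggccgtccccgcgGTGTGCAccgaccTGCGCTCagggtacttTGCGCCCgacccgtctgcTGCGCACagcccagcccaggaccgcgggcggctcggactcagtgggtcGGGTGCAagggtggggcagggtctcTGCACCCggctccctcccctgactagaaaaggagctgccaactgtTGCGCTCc
SLC30A1: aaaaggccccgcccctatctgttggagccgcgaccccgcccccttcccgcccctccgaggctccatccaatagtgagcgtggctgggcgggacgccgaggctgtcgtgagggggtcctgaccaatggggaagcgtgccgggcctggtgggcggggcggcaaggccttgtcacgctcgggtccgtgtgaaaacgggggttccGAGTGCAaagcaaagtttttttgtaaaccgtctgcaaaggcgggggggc

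MT2A held 7 matches in this window, MT1H 8, MT1X 4, SLC30A1 1 and MTF1, whose sequence is not shown, 0. Of 35116 promoter windows of the same length, 24.8% held at least 1 match and 1.58% at least 3. At least as many matches as in MT2A were held by 0.0313% of windows, as in MT1X by 0.370%, as in MT1H by 0.0171% and as in SLC30A1 by 24.8%. Among windows within 2 percentage points of the same GC content, those shares were 0.0975%, 0.774%, 0.0291% and 35.1%. The match nearest to the start lay 8 bases upstream in MT2A and MT1H, 53 in MT1X and 49 in SLC30A1. A match is a run of letters and not a shown binding site, and a window without one says nothing about sites elsewhere. Of the 9 genes, 5 had a window in the table used. MT1E, MT1F, MT1G and MT1M are named without a sequence.

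Of the 20 member probe sets, 16 were bright enough to be tested, and 7 genes had a tested probe set. The 16 are 9 metallothionein, 5 MTF1 and 2 SLC30A1 probe sets. MT1H and MT1M, the genes of metallothionein isoforms of the same family, lay below the brightness filter with all of their probe sets in every group, as did 1 of 3 MT1G probe sets. The filter is a rank among probe sets, not a measured background. Antigenomic background features, which match no human sequence, were at 2.29 log2 for the lowest and 9.86 for the highest number of G and C bases in the probe, so the background behind a given probe set could not be read from these values.

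Metallothionein probe sets are hard to assign to 1 gene, because the transcripts of the family resemble each other closely. Of the 13 metallothionein probe sets, 10 carry the suffix _s_at or _x_at, by which the manufacturer marks probes that may bind transcripts of other genes, against 29.2% of all probe sets on the array. The tested probe sets without that mark were 1 of MT1X and 1 of MT1G (both _a_at). The values below are given under the gene that the annotation names, and a share of each may come from a relative.

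Biomineralized insulin against medium asked how the biomineralized preparation changed these transcripts. All 5 tested metallothionein genes rose, MT1X by 1.95-fold, MT1E by 1.61-fold, MT1G by 1.46-fold, MT2A by 1.30-fold and MT1F by 1.12-fold, while MTF1 and SLC30A1 were not called. A gene is called changed here when the Benjamini-Hochberg adjusted p of its brightest probe set, over all 29576 tested probe sets, is under 0.05. The brightest probe set of 24.6% of all 12240 tested genes was called higher in this comparison and that of 24.5% lower, so a call by itself was common. The median difference was 0.54 log2 over the 5 metallothionein genes and 0.02 over all tested genes. Of the 9 tested metallothionein probe sets, all were called higher, beside 22.1% of all tested probe sets (45.9% were called in either direction).

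These directions hold on the deposited scale, on which the array medians lay between 5.46 and 5.5 log2. Bacterial poly-A transcripts that are spiked into the RNA as controls (spike-ins) were brighter too, at 7.81 ± 0.17 log2 with biomineralized insulin, against 7.36 ± 0.08 in medium (SD, n = 3 each, a difference of 0.44, exact permutation p = 0.1, the smallest that 3 against 3 arrays allow, and 0.375 adjusted over 15 tests of control features). With each array centred on these controls, all differences moved by -0.44. MT1X then still rose by 0.53 log2 (adjusted p = 1.3e-05), MT1E was at 0.24 (adjusted p = 0.063) and MT1G at 0.10 (adjusted p = 0.48), while MT2A and MT1F turned to -0.07 (adjusted p = 0.55) and -0.28 (adjusted p = 0.031). SLC30A1 and MTF1 were then lower, at -0.43 and -0.44 log2 (adjusted p = 0.00025 and 0.0014). On the deposited scale they differed by 0.011 and 0.0062, so these 2 values largely repeat the shift. All probe sets of an array share its shift, while the fit pools their spread as if it were independent. The limma p-values after this centring, here and below, therefore do not carry the full uncertainty of the shift. What part the spike-in shift has in these results was not tested. The hybridization spike-ins, which are added after labelling, differed by -0.0049 log2 in the same comparison (exact permutation p = 0.9).

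**Figure D1:**
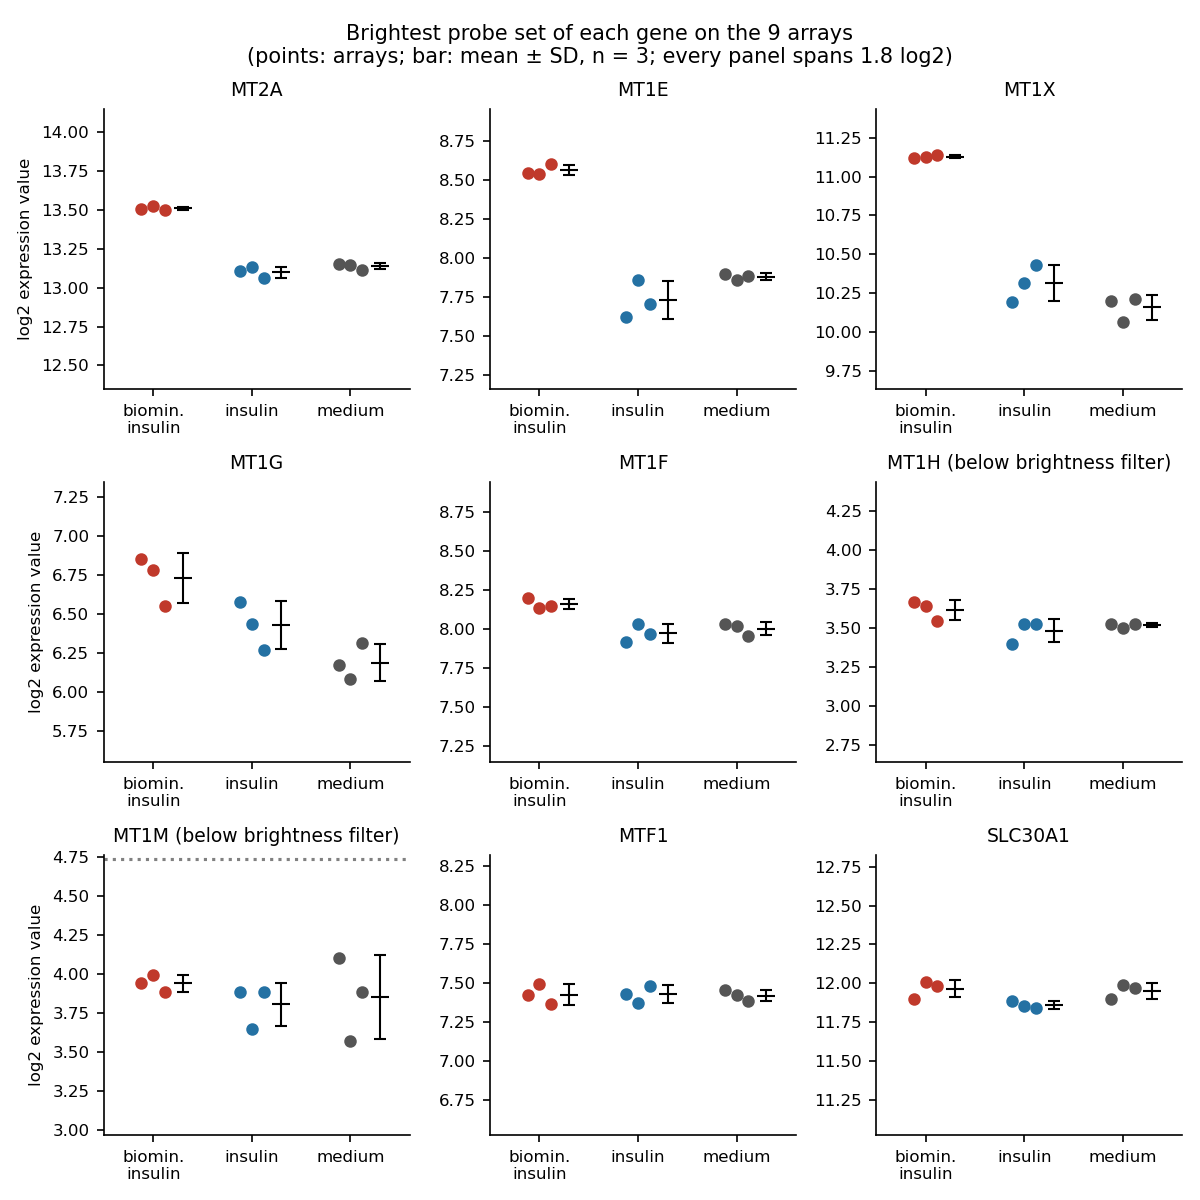
Log2 expression value of the brightest probe set of each of the 9 genes on each array, with biomineralized insulin, insulin and medium from left to right in each panel (points, arrays; bars, mean ± SD, n = 3). The 3 biomineralized insulin arrays lie above all other arrays for MT2A, MT1E, MT1X, MT1F and the dim MT1H, while the groups overlap for MTF1. Of all tested genes, 28.9% had these arrays above medium and 26.4% above insulin.

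MT1X, which encodes an inducible metallothionein-1 isoform, showed the largest rise among the members. Its brightest probe set was at 11.12, 11.13 and 11.14 log2 with biomineralized insulin, at 10.20, 10.32 and 10.43 with insulin, and at 10.20, 10.07 and 10.21 in medium. All 3 biomineralized insulin arrays lay above the other 6, and the insulin and medium arrays overlapped. The difference between biomineralized insulin and medium was 0.97 ± 0.05 log2 (SE, 3 arrays against 3, adjusted p = 1.8e-09). The other MT1X probe set, one without the cross-hybridization mark, gave 0.95 ± 0.05 (adjusted p = 3.0e-09), at 10.53, 10.52 and 10.61 against 9.63, 9.50 and 9.68 log2 in medium.

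MT1E, another inducible isoform, was read by 1 probe set, which carries the cross-hybridization mark. It was at 8.55, 8.54 and 8.60 log2 with biomineralized insulin, at 7.62, 7.86 and 7.70 with insulin, and at 7.90, 7.86 and 7.88 in medium. The biomineralized insulin arrays again stood clear of both other groups. The difference from medium was 0.68 ± 0.06 log2 (adjusted p = 2.8e-07).

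MT2A encodes metallothionein-2, usually the most abundant isoform in human cells. Its brighter probe set was at 13.51, 13.52 and 13.50 log2 with biomineralized insulin, at 13.11, 13.13 and 13.06 with insulin, and at 13.15, 13.14 and 13.11 in medium. Every biomineralized insulin array lay above every other array, with a spread of 0.01 (SD) against 0.02 in medium. The difference was 0.37 ± 0.02 log2 (adjusted p = 9.6e-09), on a scale whose highest value on any array was 14.3. The dimmer MT2A probe set, at 7.82, 7.84 and 7.86 log2 with biomineralized insulin and 7.44, 7.50 and 7.56 in medium, gave 0.35 ± 0.06 (adjusted p = 0.00014). The 95% intervals of both probe sets overlapped, at 0.32 to 0.42 for the brighter and 0.22 to 0.47 for the dimmer.

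MT1G and MT1F are isoforms whose genes neighbour each other. The brightest MT1G probe set was at 6.86, 6.79 and 6.55 log2 with biomineralized insulin, 6.58, 6.44 and 6.27 with insulin, and 6.17, 6.08 and 6.31 in medium, a rise of 0.54 ± 0.10 over medium (adjusted p = 0.00029). Its marked probe set rose by 0.28 ± 0.09 (adjusted p = 0.017), with arrays that overlapped medium. The third, at 2.73 to 2.94 log2 with biomineralized insulin and 2.79 to 2.87 in medium, was too dim to test. The brighter MT1F probe set was at 8.20, 8.14 and 8.15 log2 with biomineralized insulin, 7.91, 8.03 and 7.97 with insulin, and 8.03, 8.02 and 7.96 in medium. Its rise of 0.16 ± 0.05 (adjusted p = 0.019) was the smallest of the called members, and leaving out medium replicate 3 (adjusted p = 0.060) or biomineralized insulin replicate 1 (0.069) ended the call. Over all its alternatives the adjusted p lay between 0.0039 and 0.069. This range includes spike-in centring, where the sign was negative (-0.28, adjusted p = 0.031). The dimmer MT1F probe set gave 0.185 ± 0.06 (adjusted p = 0.023).

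MT1H and MT1M stayed dim. The MT1H probe set was at 3.67, 3.64 and 3.54 log2 with biomineralized insulin, at 3.40, 3.52 and 3.52 with insulin, and at 3.52, 3.50 and 3.52 in medium. The 3 biomineralized insulin arrays lay just above the rest, a pattern that 28.9% of tested genes showed against medium and 26.4% against insulin, and in a fit without the brightness filter MT1H was not called (0.10 log2, adjusted p = 0.41). MT1M was at 3.89 to 4.00 log2 with biomineralized insulin, 3.65 to 3.89 with insulin and 3.57 to 4.11 in medium in its brighter probe set, and in that fit it was not called either (0.087 log2, adjusted p = 0.66).

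**Figure D2:**
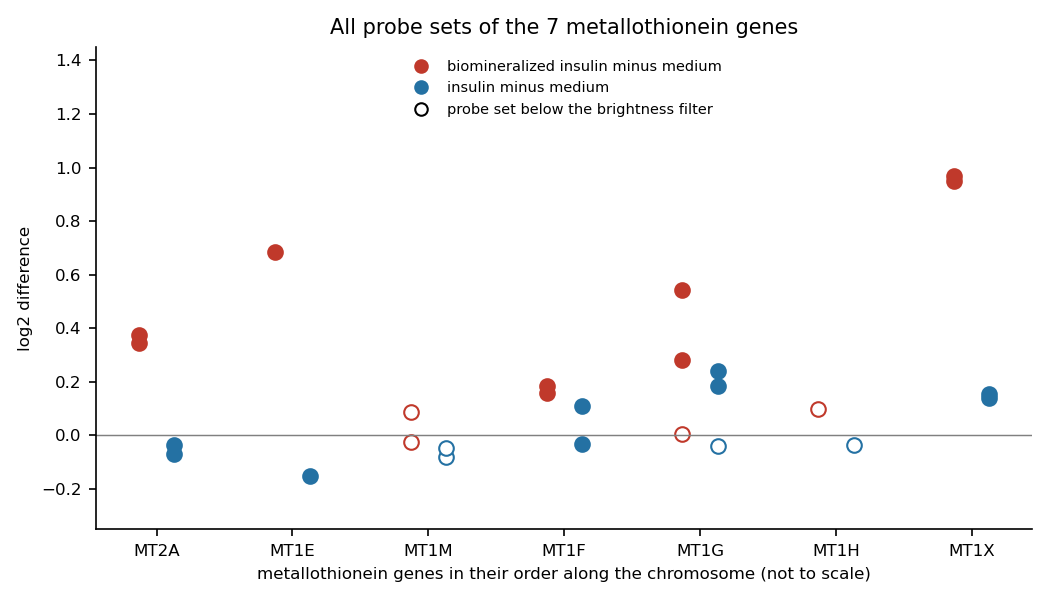
Log2 difference from medium of all 13 probe sets of the 7 metallothionein genes, for biomineralized insulin (red, left) and insulin (blue, right), in the order of the genes along chromosome 16. The largest differences with biomineralized insulin are those of MT1X, at 0.97 and 0.95, and MT1E, at 0.68, and the open symbols of MT1M and MT1H between them are probe sets below the brightness filter.

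The 7 metallothionein genes lie in 1 cluster on chromosome 16, in the order MT2A, MT1E, MT1M, MT1F, MT1G, MT1H and MT1X in RefSeq. Along that order the brightest probe sets differed between biomineralized insulin and medium by 0.37, 0.68, 0.087, 0.16, 0.54, 0.10 and 0.97 log2, with no regular trend from one end to the other. The outermost genes, MT2A and MT1X, were both called, and MT1M and MT1H, the genes below the filter, lie between called neighbours.

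MTF1, the regulator, was not called with any of its 5 probe sets. The brightest was at 7.42, 7.49 and 7.36 log2 with biomineralized insulin, 7.43, 7.37 and 7.48 with insulin, and 7.45, 7.42 and 7.38 in medium. The groups overlapped, with a difference from medium of 0.0062 log2 and a 95% interval of -0.12 to 0.13 (adjusted p = 0.94). Over the 5 probe sets the differences ran from -0.22 to 0.05 log2. The lowest belonged to the dimmest MTF1 probe set, which was at 4.72, 5.23 and 5.27 log2 with biomineralized insulin and at 5.23, 5.23 and 5.43 in medium (adjusted p = 0.20). These arrays measure the MTF1 transcript and not the zinc-dependent activity of the protein.

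SLC30A1, the zinc exporter, was likewise not called against medium. Its brighter probe set was at 11.90, 12.01 and 11.98 log2 with biomineralized insulin, 11.89, 11.86 and 11.84 with insulin, and 11.90, 11.99 and 11.97 in medium. The biomineralized insulin and medium arrays overlapped, with a difference of 0.011 log2 and a 95% interval of -0.06 to 0.08 (adjusted p = 0.81). The other probe set, without the cross-hybridization mark, was at 9.04, 9.11 and 9.07 log2 with biomineralized insulin and at 9.06, 9.13 and 9.14 in medium, a difference of -0.035 (adjusted p = 0.57).

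**Figure D3:**
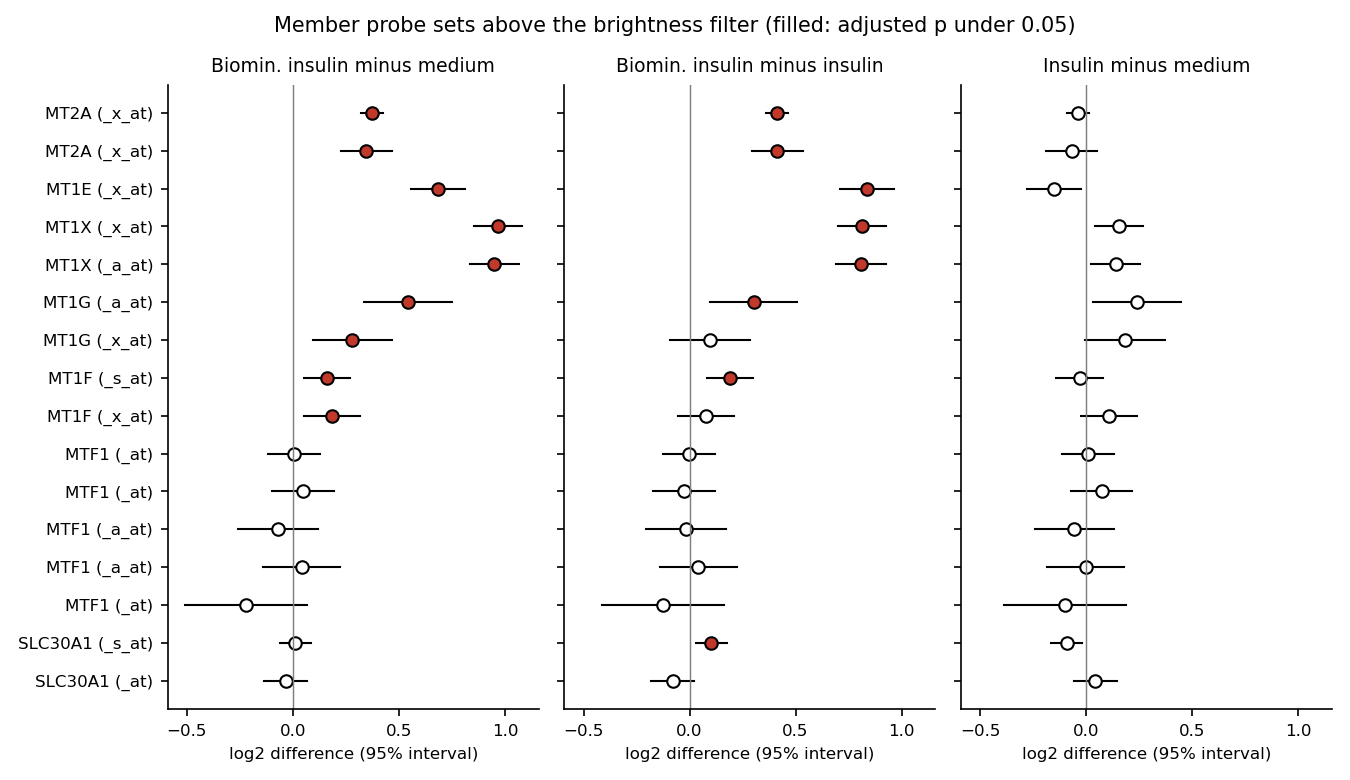
Log2 difference and 95% interval of the 16 tested member probe sets, one row each, for biomineralized insulin minus medium, biomineralized insulin minus insulin, and insulin minus medium (filled, adjusted p under 0.05). All 9 metallothionein probe sets are filled in the left panel, none of the 16 is filled in the right panel, and the MTF1 rows are open in all panels, the lowest at -0.22 in the left one.

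Differences between 2 probe sets of the same array are not changed by a constant shift of that array, such as centring on the spike-ins. The difference between the brightest probe sets of MT1X and SLC30A1 was -0.79, -0.88 and -0.84 log2 on the biomineralized insulin arrays and -1.69, -1.92 and -1.76 on the medium arrays. The groups did not overlap, and their means differed by 0.96. For MT1E and SLC30A1 the within-array difference moved by 0.67 log2, for MT1G by 0.53, for MT2A by 0.36 and for MT1F by 0.15, and the arrays overlapped for MT1F alone of these 5. Against MTF1 the same 5 differences moved by 0.96, 0.68, 0.54, 0.37 and 0.15 log2, with no overlap for any of the 5. SLC30A1 and MTF1 themselves differed from medium by only 0.011 and 0.0062 log2, so these contrasts largely repeat the metallothionein differences given above. The share of other genes without overlap in such contrasts was not computed. Taken singly, 28.9% of tested genes had all 3 biomineralized insulin arrays above medium. Metallothioneins also moved unequally among themselves, since MT1X minus MT2A was higher by 0.59 log2 and MT1X minus MT1F by 0.81. Each pair without overlap had a two-sided exact permutation p of 0.1, the smallest possible with 3 arrays a group, and 0.157 adjusted over 36 such comparisons, so none passed a threshold of 0.05.

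**Figure D4:**
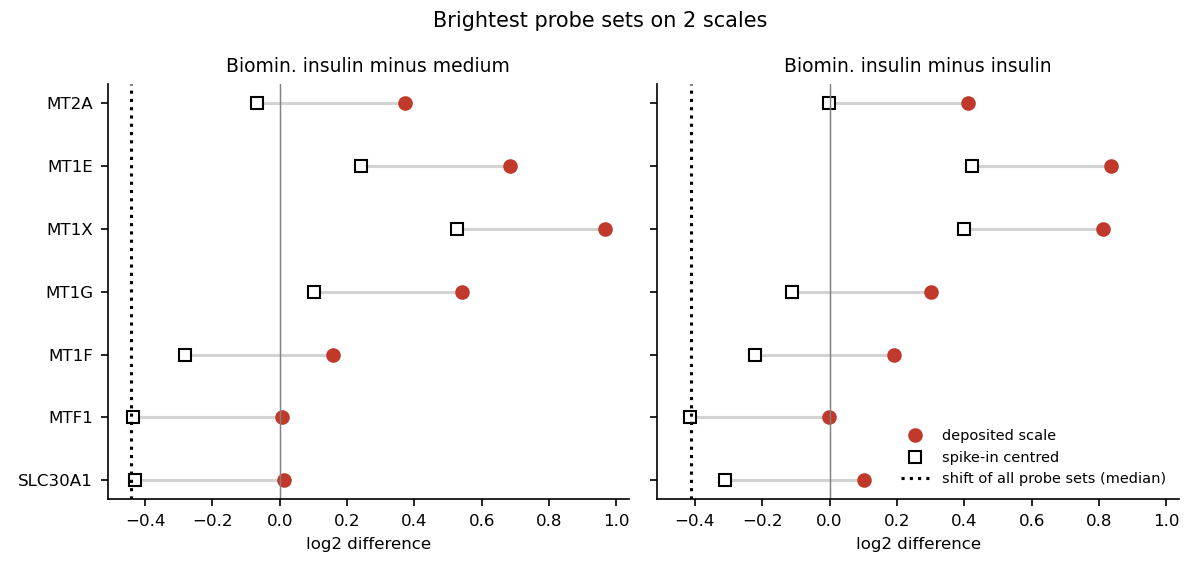
Log2 difference of the brightest tested probe set of 7 members, for biomineralized insulin minus medium and minus insulin, on the deposited scale (red circles) and after centring each array on the spike-ins (open squares). All members move left by the same amount (dotted line, -0.44 and -0.41), so MT1X at 0.53 and MT1E at 0.24 remain above 0 in the left panel while MT2A and MT1F fall below it.

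The preparations were set against each other directly in the comparison of biomineralized insulin with insulin, given at equal dose. All 5 tested metallothionein genes were higher with biomineralized insulin, beside 20.0% of tested genes called higher and 22.5% called lower. MT1E differed by 0.84 ± 0.06 log2 (adjusted p = 4.8e-08), MT1X by 0.81 ± 0.05 (adjusted p = 1.8e-08), MT2A by 0.41 ± 0.02 (adjusted p = 4.8e-09), MT1G by 0.30 ± 0.10 (adjusted p = 0.022) and MT1F by 0.19 ± 0.05 (adjusted p = 0.0080). Of the 9 tested metallothionein probe sets, 7 were called higher, beside 18.5% of all tested probe sets (38.6% in either direction). The marked probe sets of MT1G and MT1F that were not called stood at 0.097 and 0.077 log2 (adjusted p = 0.43 and 0.36).

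The MT1G call against insulin was lost without insulin replicate 3 (adjusted p = 0.11), without biomineralized insulin replicate 1 (0.11) and without biomineralized insulin replicate 2 (0.077), with adjusted p from 0.0069 to 0.44 among its alternatives. After centring on the spike-ins MT1E and MT1X were higher by 0.42 and 0.40 log2 (adjusted p = 0.0015 and 0.0011), whereas MT2A was at -0.0017, MT1G at -0.11 and MT1F at -0.22, none of them called.

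MTF1 was at -0.0012 log2 in this comparison, with a 95% interval of -0.12 to 0.12 (adjusted p = 0.99), and after spike-in centring it was lower (-0.41, adjusted p = 0.0027). SLC30A1 was called higher than with insulin in its brighter probe set, by 0.10 ± 0.03 log2 (adjusted p = 0.028), while its other probe set had the opposite sign (-0.080, adjusted p = 0.21). The call was lost without insulin replicate 2 (adjusted p = 0.058), insulin replicate 3 (0.090), biomineralized insulin replicate 2 (0.12) and biomineralized insulin replicate 3 (0.091). Among its alternatives the adjusted p lay between 0.0083 and 0.82, and after spike-in centring the sign was negative (-0.31, adjusted p = 0.0083).

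Insulin against medium asked whether insulin alone at that dose moved the same transcripts. None of the 7 tested genes and none of the 16 tested probe sets was called (limma, 1.40% of all tested genes and 1.20% of all tested probe sets were called), and by unadjusted p 4 genes of the 7 were under 0.05, beside 14.8% of all tested genes. These were MT1X at 0.15 ± 0.05 log2 (adjusted p = 0.19), MT1G at 0.24 ± 0.10 (adjusted p = 0.27), MT1E at -0.15 ± 0.06 (adjusted p = 0.25) and SLC30A1 at -0.090 ± 0.03 (adjusted p = 0.24). The 3 insulin arrays lay below the 3 medium arrays for SLC30A1, a pattern shown by 9.10% of tested genes, while they overlapped medium for the other 3 of these genes. The 95% intervals were 0.04 to 0.27 log2 for MT1X and -0.28 to -0.02 for MT1E. MT2A was at -0.04 (95% interval -0.09 to 0.01, adjusted p = 0.51), MT1F at -0.03 (adjusted p = 0.85) and MTF1 at 0.0074 (adjusted p = 0.97). On the insulin arrays the 3′ minus 5′ signal of actin, an RNA quality control, was 3.19 ± 0.08 log2 against 3.02 ± 0.06 in medium (SD, n = 3 each, exact permutation p = 0.1, 0.375 adjusted), and its part in these values was not tested.

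Other metallothionein genes outside the 9 were followed through a list of 8. Of these, 3 had a probe set above the filter, 2 were too dim, and 3 had no probe set with a single symbol in the annotation used here. All 3 tested genes were called higher with biomineralized insulin than in medium, beside 24.6% of all tested genes. None was called with insulin, where only 1.40% of all tested genes were called in either direction. MT1B was at 6.14, 6.21 and 6.26 log2 with biomineralized insulin and at 5.77, 5.77 and 5.81 in medium, in a probe set without the cross-hybridization mark (0.42 ± 0.07, adjusted p = 0.00013). The probe set of the pseudogene MT1IP rose by 0.39 ± 0.07 (adjusted p = 0.00039). It carries the mark, so a share of its signal may come from a relative, and it was the only 1 of 4 MT1IP probe sets above the filter. MT3, the isoform best known from brain, rose by 0.50 ± 0.11 (adjusted p = 0.0020), also in a marked probe set. The unmarked MT3 probe set was at 0.096 and not called (adjusted p = 0.45 without marked probe sets). After spike-in centring MT1B was at -0.019, MT1IP at -0.053 and MT3 at 0.061, none of them called.

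Zinc moves through a family of exporters (SLC30) and a family of importers (SLC39). Of 9 further SLC30 genes, 6 were tested, 1 rose with biomineralized insulin over medium and none fell, with a median difference of 0.07 log2. The 1 was SLC30A5, which loads zinc into the secretory pathway, at 9.02, 9.05 and 9.05 log2 against 8.75, 8.67 and 8.75 in medium (0.32 ± 0.04, adjusted p = 2.9e-05). Of its 5 tested probe sets, 1 had the opposite sign, and after spike-in centring SLC30A5 was at -0.12. Of 14 SLC39 genes, 11 were tested, 5 rose and 1 fell, with a median of 0.13 log2, beside the 24.6% and 24.5% of all tested genes given above.

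SLC39A10, a plasma membrane importer whose gene MTF1 is known to repress in mouse cells, was at 11.93, 12.05 and 12.004 log2 with biomineralized insulin, 11.48 on each of the 3 insulin arrays, and 11.35, 11.30 and 11.27 in medium. The 3 groups did not overlap. The insulin values were nearly identical (SD 0.00037), and up to 4.87% of probe sets held the same value on a pair of arrays. The cause of such ties was not tested, so this small spread may not reflect the spread between cultures. The same limit holds for members with equal rounded values. A dimmer MTF1 probe set was at 6.685 log2 on arrays of all 3 groups, and MT1H at 3.524 on insulin and medium arrays. SLC39A10 rose by 0.69 ± 0.03 over medium (adjusted p = 5.1e-10), and by 0.25 after spike-in centring. SLC39A7, which releases zinc from the endoplasmic reticulum and Golgi, rose by 0.59 ± 0.05 (adjusted p = 3.0e-07), and was at 0.15 and not called after spike-in centring (adjusted p = 0.24). SLC39A6 rose by 0.32 ± 0.03 (adjusted p = 1.0e-06, and at -0.12 after spike-in centring). SLC39A14, an importer of zinc, iron and manganese that is abundant in liver, fell by 0.28 ± 0.03 (adjusted p = 1.2e-06).

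With insulin, SLC39A10 rose by 0.17 ± 0.03 log2 (adjusted p = 0.028) and SLC39A14 fell by 0.17 ± 0.03 (adjusted p = 0.011), beside 0.637% of tested genes called higher and 0.760% called lower. The other 9 tested SLC39 genes and all 6 SLC30 genes were not called. The SLC39A10 call was lost without medium replicates 2 (adjusted p = 0.13) and 3 (0.073) and without insulin replicates 1 (0.084) and 3 (0.13), and its other tested probe set had the opposite sign (-0.075), so that the mean of its probe sets was at 0.046 (adjusted p = 0.79). The SLC39A14 call ended when medium replicate 2 (adjusted p = 0.075) or insulin replicate 3 (0.078) was left out.

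**Figure D5:**
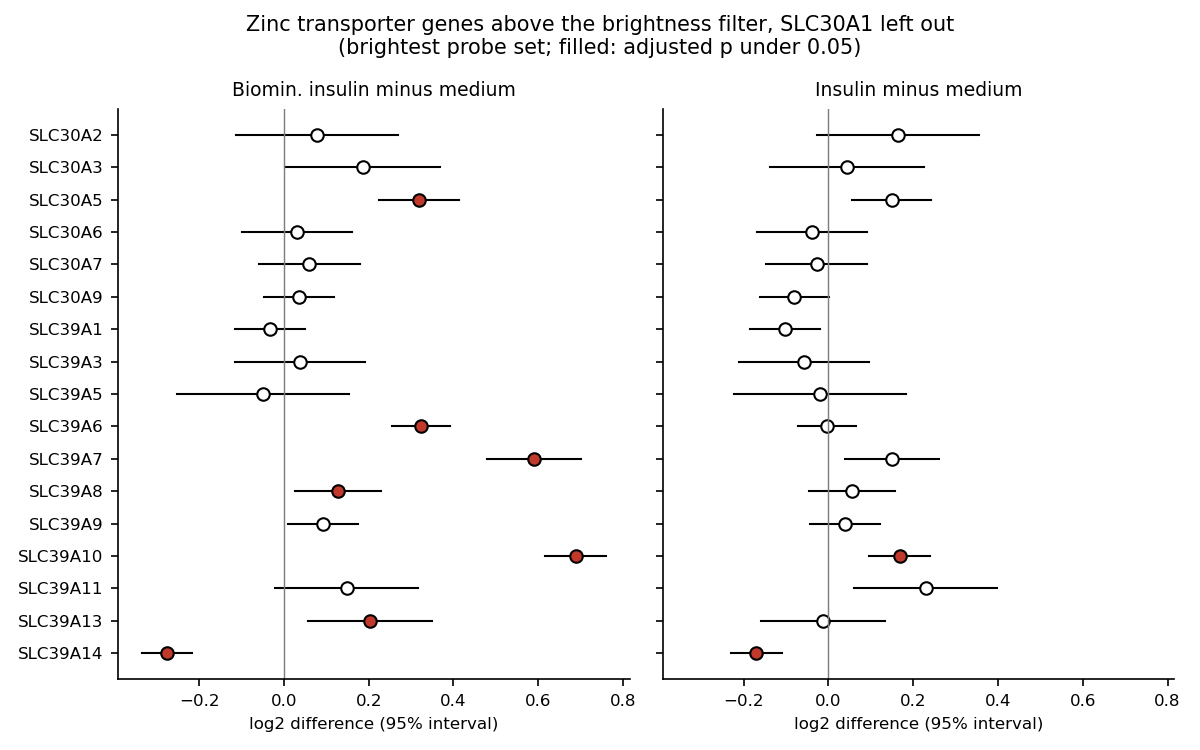
Log2 difference and 95% interval of the 17 tested SLC30 and SLC39 genes other than SLC30A1, for biomineralized insulin minus medium and insulin minus medium (filled, adjusted p under 0.05). SLC39A10 at 0.69 and SLC39A7 at 0.59 stand farthest to the right in the left panel, and SLC39A14 is the filled point left of 0 in both panels.

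A list of 11 genes reported as MTF1 targets other than metallothioneins, SLC30A1 and SLC39A10 among them, gave 10 tested genes, of which 4 rose and 1 fell with biomineralized insulin over medium (median 0.12 log2). Those 5 called genes of 10 are near the 49.1% of all tested genes called in either direction. NDRG1, a stress-responsive gene also induced by hypoxia, was at 12.40, 12.33 and 12.42 log2 against 11.40, 11.20 and 11.51 in medium (1.01 ± 0.09, adjusted p = 3.3e-07). HAMP, the gene of the iron hormone hepcidin, rose by 0.38 ± 0.09 (adjusted p = 0.0039, and at -0.059 after spike-in centring). CEBPA, a liver transcription factor gene, fell by 0.35 ± 0.07 (adjusted p = 0.00067). Against insulin, biomineralized insulin gave 2 higher and 0 lower of the 6 SLC30 genes, 4 higher and 1 lower of the 11 SLC39 genes, and 5 higher and 0 lower of the 10 MTF1 target genes, with medians of 0.102, 0.074 and 0.185 log2, beside 20.0% of all tested genes called higher and 22.5% called lower.

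The pattern of the 5 tested metallothionein genes over the 9 arrays was averaged, each gene taken as its deviation from its own mean. The averaged deviation was 0.38, 0.36 and 0.32 log2 on the biomineralized insulin arrays, -0.18, -0.11 and -0.18 with insulin, and -0.18, -0.23 and -0.17 in medium. Other genes were ranked by their Pearson correlation with it over the 9 arrays, with metallothioneins and unnamed loci (LOC and orf symbols) left out. The highest 5 of the 12098 genes so ranked were FXR2, an RNA-binding protein gene (r = 0.996), TUBB4B, a beta-tubulin gene (0.996), PPP1R11, a phosphatase inhibitor gene (0.995), HSPA8, the constitutive HSP70 gene (0.994), and BAG1, an HSP70 co-chaperone gene (0.994). Their differences from medium with biomineralized insulin were 0.61, 0.92, 0.62, 1.87 and 0.76 log2. The arrays form 3 groups of which 1 stands apart, so such values were common: 624 of 12098 genes exceeded 0.95. MTF1 correlated with the averaged pattern at 0.007 and SLC30A1 at 0.38.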

How the data were processed

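The authors deposited 1 log2 value per probe set and array, a scale found from their range of 2.02 to 14.3 and the near-identical array distributions. How the probes were summarised and normalized is, in the sources used here, not given. Per the labels' protocols, biotin-labelled RNA was made from the 3′ ends by in vitro transcription. The number of arrays limits the precision. Members, lists and tests were chosen with earlier results of these data known.

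Of 49395 probe sets, 102 were control features, 44988 had 1 gene symbol, 1832 several and 2473 none listed. Symbols of 44961 were updated through Entrez identifiers with the RefSeq table of GRCh38.p14. The dimmest 40 percent by mean over 9 arrays (below 4.74 log2) were left out. All 9 arrays entered 1 linear model with group as its only term, fitted to 29576 probe sets in R 4.3.3 with limma 3.58.1 (eBayes, trend in intensity, 6 residual degrees of freedom). A gene was called by its brightest probe set with 1 symbol. The procedure was also run on simulated data with independent noise and few changed probe sets. That run cannot speak to shifts shared by a whole array or to widespread change. Named genes are the 9 members, up to 4 called genes with the lowest p per list and comparison with medium, and the 5 genes most correlated with the mean metallothionein pattern. Metallothioneins and unnamed loci (LOC and orf symbols) were left out of that ranking. Exact permutation tests were two-sided (scipy 1.17.1). Alternatives covered the replicate block, arrays in the fit, normalization, filters, probe set choice, variance model, array weights, threshold and leaving out arrays. Figures were drawn with matplotlib 3.10.9.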

Additional observations from a re-analysis of the deposited data

Results flagged for a closer look

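The poly-A spike-in features, which lie outside the measured genes, were brighter by 0.441 log2 on the biomineralized insulin arrays than on the medium arrays. They were picked out as a signal in data that the gene comparisons on the deposited scale do not use.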

How the results depend on the processing

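Of 1016 alternative log2 differences for the genes named here, 941 kept their direction and their side of the threshold. Of 132 alternative counts, 110 stayed within 1.5 times. Settings that changed only the block, the arrays in the fit, the variance trend or the threshold left the difference itself unchanged, so its direction could not turn. The counts ignore direction. After spike-in centring 4 members were called against medium, MT1X higher and MT1F, MTF1 and SLC30A1 lower. Centring on the poly-A spike-ins turned the sign of MT1F (-0.28), MT2A (-0.068), MTF1 (-0.44), SLC30A1 (-0.43), MT1B (-0.019), MT1IP (-0.053), SLC30A5 (-0.12), SLC39A6 (-0.12), SCO2 (-0.21), PCBP1 (-0.22), TFRC (-0.29) and HAMP (-0.059) for biomineralized insulin against medium. Against insulin it turned MT1F (-0.22), MT1G (-0.11), MT2A (-0.0017) and SLC30A1 (-0.31), and for insulin against medium MTF1 (-0.021). With that centring 22979, 22656 and 9 probe sets were called for biomineralized insulin against medium, biomineralized insulin against insulin, and insulin against medium, where 13565, 11422 and 354 were called on the deposited scale. The centred counts do not carry the full uncertainty of the shift, which all probe sets of an array share.

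Differences of MTF1 and SLC30A1 near 0 also turned. Median centring gave -0.014 for MTF1 and -0.0087 for SLC30A1 against medium, and quantile normalization 0.028 for MTF1 against insulin. The mean of probe sets gave -0.040 (MTF1) and -0.012 (SLC30A1) against medium, and for insulin against medium 0.039 (MT1F) and -0.015 (MTF1). Without marked probe sets SLC30A1 was at -0.035, -0.080 and 0.044 in the 3 comparisons. Leaving out 1 array gave -0.027 to 0.038 (MTF1) and -0.017 to 0.042 (SLC30A1) against medium, -0.035 to 0.030 (MTF1) against insulin, and -0.021 to 0.036 (MTF1) for insulin against medium.

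Without marked probe sets 2 members were called in each comparison of biomineralized insulin, instead of 5 against medium and 6 against insulin, since MT1E, MT1F and MT2A have no other probe set and the unmarked SLC30A1 probe set was not called against insulin, and 8520, 7138 and 230 probe sets were called. With 1 probe set per gene 6230 and 5433 were called for biomineralized insulin, and with the mean of probe sets 6171 and 5296, because fewer features were tested, and 207 for insulin. For insulin against medium the count was 177 with 6 arrays in the fit, 15 without the variance trend, 708 with array weights, 58 at a threshold of 0.01, and 22 to 423 without 1 array, and the cause was not tested. With the replicate number as a block it was 209, while 5, 6 and 0 members were called as before, and the SLC39A10 call for insulin against medium was lost (adjusted p = 0.055). The deviations of same-numbered arrays of different groups correlated at -0.16 to 0.14, and those of differently numbered arrays at -0.32 to 0.3. No pairing by number was seen in these values, which cannot show whether same-numbered arrays shared a culture or batch.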

Other observations

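Genes of copper and iron handling were followed as lists as well, beside the 24.6% of all tested genes called higher and 24.5% called lower with biomineralized insulin against medium. Of 11 copper genes, all tested, 5 rose and 3 fell against medium (median 0.10 log2). None was called with insulin, where 1.40% of all tested genes were called. SLC31A1, the main copper importer, was at 8.25, 8.19 and 8.23 log2 with biomineralized insulin, against 9.25, 9.11 and 8.97 in medium (-0.89 ± 0.07, adjusted p = 6.5e-08). SLC31A2, a related transporter of internal membranes, rose by 0.50 ± 0.06 (adjusted p = 9.7e-06, and at 0.055 after spike-in centring). COMMD1, a copper export regulator, fell by 0.29 ± 0.05 (adjusted p = 0.00054), and SCO2, a copper chaperone of cytochrome oxidase, rose by 0.23 ± 0.06 (adjusted p = 0.0034, and at -0.21 after spike-in centring).

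Of 12 tested iron genes, of 16 listed, 5 rose and 1 fell against medium (median 0.07 log2), near the 49.1% of all tested genes called in either direction. With insulin none was called, beside 1.40% of all tested genes. STEAP3, an endosomal ferric reductase, was at 8.54, 8.50 and 8.58 log2 with biomineralized insulin, against 7.41, 7.47 and 7.48 in medium (1.09 ± 0.05, adjusted p = 3.7e-10), in 1 probe set. TFR2, a transferrin receptor of hepatocytes and erythroid cells, rose by 0.75 ± 0.08 (adjusted p = 3.6e-06). TFRC, the main transferrin receptor, rose by 0.15 ± 0.02 (adjusted p = 0.00013, with 1 of 3 probe sets of opposite sign), and PCBP1, an iron chaperone, by 0.22 ± 0.03 (adjusted p = 1.8e-05). After spike-in centring TFR2 was at 0.31, TFRC at -0.29 and PCBP1 at -0.22.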
